A study of Mus musculus with 141 samples.

Results

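The cells described here are 67 single cells of a mouse glioma line that had been grown with AG-881, ranked by how much of their DNA was methylated and divided into cells of high and of low methylation. They make up 67 of the 141 cells in the table, and the other 74 were grown with DMSO. The line carries the R132H mutation of isocitrate dehydrogenase (IDH) in all cells of both arms, and neither tumour tissue nor a culture without the mutation enters any comparison. The treated arm received 1 µM AG-881 (vorasidenib, an inhibitor of mutant IDH1 and IDH2) and the control arm received the vehicle DMSO, both for over 2 weeks, before live cells were sorted into a plate. Methylation was read in each cell by reduced representation bisulfite sequencing, which cuts DNA at CCGG and so samples CpG-rich sequence. Nothing in the labels points to more than 1 culture per arm, and its cells are therefore not replicates. No p-value is given, and SDs over cells or over library pools are descriptions. The RNA of these cells was not analysed here, so the labelled cell type was not checked against marker expression.

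Cells were grouped by a measured value. At positions on the 10 odd-numbered autosomes called in at least 10 AG-881 cells, each call (0 for unmethylated, 1 for methylated, 0.5 for a mixed call) was set against the mean of the other AG-881 cells at that position, and the mean of these deviations, in percentage points, was the score of the cell. This used 119730 positions and a median of 23188 calls per cell. Within each of the 4 library pools (14, 18, 19 and 16 cells) the cells were divided at the median score, which gave 33 high and 33 low cells and left out 1 median cell, in pool 3. The comparison then used only the 9 even-numbered autosomes, with 82277 positions and a median of 16273 calls per cell (range 4758 to 31455). The odd autosomes had been used to choose the cells, so their difference of 1.55 points is a description and nothing more. Just inside and outside the division, the lowest high cell and the highest low cell scored -0.506 and -0.567 points in pool 1, -0.251 and -0.255 in pool 2, 0.850 and 0.346 in pool 3, and -0.170 and -0.186 in pool 4. The division therefore fell within a continuous range of scores in pools 1, 2 and 4.

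DNA methylation at CpG sites is copied at each cell division by DNMT1, set anew by DNMT3A and DNMT3B, and removed through oxidation by the TET enzymes. Mutant IDH makes 2-hydroxyglutarate, which inhibits TET enzymes, and gliomas with this mutation are known for methylated CpG islands. In most mammalian cells CpG-dense sequence at gene starts carries little methylation and CpG-poor sequence in gene bodies and between genes carries much.

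Depth did not separate the groups in 1 direction. The high cells had calls at a median of 101448 positions (range 35961 to 186004) and the low cells at 91580 (range 25274 to 202478), with more positions in the high cells of pool 3 and fewer in those of pools 1, 2 and 4. Mixed calls made up 0.385% ± 0.094 of values in the high cells and 0.383% ± 0.157 in the low cells (SD over 33 cells each). On the mitochondrial chromosome, which checks bisulfite conversion, 0 of 306 calls were methylated in the high cells and 0 of 287 in the low cells, which allows levels of up to 0.980% and 1.05% (3 calls of the total). At the ends of 16 ribosomal protein genes the pooled level was 0.648% in high and 0.707% in low cells, and at 8 housekeeping genes it was 0.378% and 0.461%. The levels at both gene lists were not higher in the high cells, and the mitochondrial calls, at 0 in both groups, show no difference at this depth. Positions under 5% in DMSO cells were higher in the high cells, at 0.767% of 187161 calls against 0.547% of 183212. Pool 3 stood apart from the other AG-881 pools by its high scores, and results that rest on it are given with and without it. All 24 cell barcodes recur across pools, and of 22 barcodes seen in at least 2 AG-881 pools, 6 lay on the same side of the division in every pool.

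Cells that scored high on odd autosomes also scored high on even autosomes. On even autosomes the high cells ranged from -0.671 to 2.94 points, with a median of 0.586, and the low cells from -2.78 to 0.855, with a median of -0.571. The groups overlapped: 24 of 33 high cells and 4 of 33 low cells lay above 0. The high cells were above the low cells by 1.51 points in pool 1, 1.00 in pool 2, 1.62 in pool 3 and 1.55 in pool 4, a mean of 1.42 points ± 0.284 (SD over 4 pools). All 4 pools had the same sign. As pooled levels, 23.2% of 548519 calls were methylated in the high cells (95% Clopper-Pearson interval 23.1 to 23.3) and 20.9% of 527052 in the low cells (interval 20.8 to 21.02). These intervals cover counting error only, here and below, and the pooled levels also differ in which positions each cell covers, which the matched difference removes. Dividing the cells by even autosomes would have placed 54 of the 66 cells on the same side. Across the 67 cells, Pearson's r between both scores was 0.949, and 0.943 after centring each pool, as a description over cells that share libraries and culture.

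**Figure D1:**
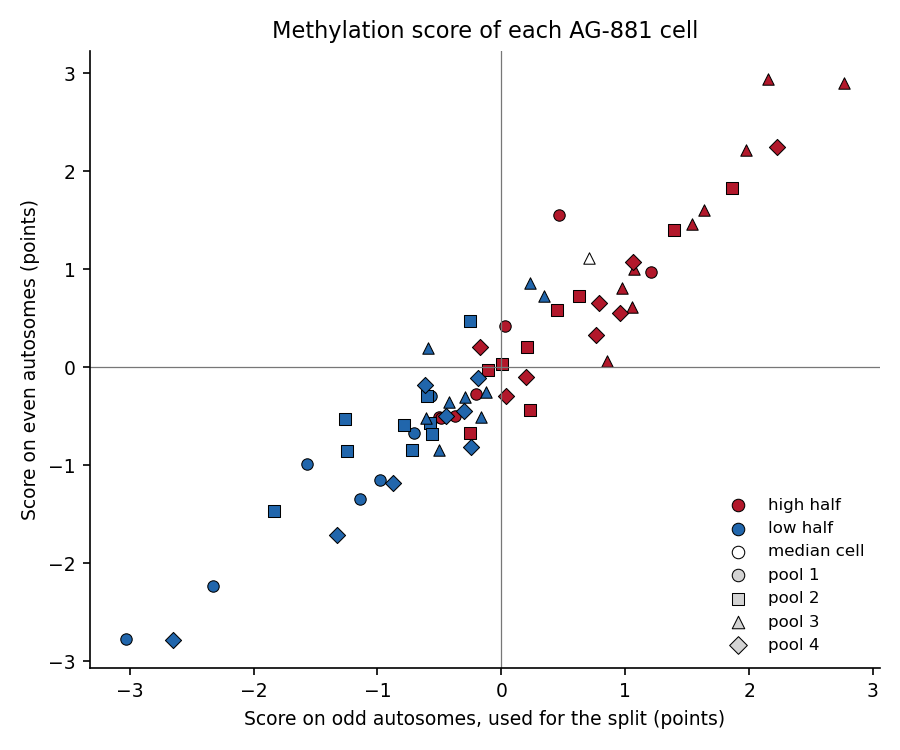
Each point is 1 AG-881 cell, with its score on odd autosomes (x axis, used for the division) against its score on even autosomes (y axis), both in percentage points. Colour gives the group and the symbol gives the pool; cells follow the diagonal from -3.03 to 2.76 points on the x axis without a gap between the groups.

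The same division was made in DMSO cells, to show how much methylation varies between cells without the inhibitor. It gave 36 high and 36 low DMSO cells, and on even autosomes these differed by 1.98 points ± 0.184 (SD over 4 pools, range 1.74 to 2.14). All 4 DMSO pools lay above all 4 AG-881 pools, whose range was 1.00 to 1.62. The SD of even-autosomal scores within pools was 1.04 points over AG-881 cells and 1.24 points over DMSO cells. Depth moved with this comparison, at medians of 77529 and 67737 positions in the high and low DMSO cells, against 101448 and 91580 in the AG-881 cells. With each cell thinned to 20000 positions the order of the arms turned, at 1.89 points in AG-881 and 1.27 in DMSO cells, with 476 positions left in AG-881 cells. With thinned cells and positions called in 3 or more cells, chosen after seeing the data, it was 1.60 and 2.16 points, with 66127 positions left in AG-881 cells. Arm and pool cannot be told apart, since no pool holds cells of both arms.

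The difference between high and low AG-881 cells was present in each part of the gene map, and was larger in points where methylation was common. Within 1 kb of a gene end, 5.72% of 323179 calls were methylated in high cells (interval 5.64 to 5.80) and 4.85% of 313959 in low cells (interval 4.77 to 4.92), and the matched difference was 0.915 points ± 0.159 (SD over 4 pools). Inside gene bodies the levels were 36.8% and 33.9%, and the matched difference was 1.91 points ± 0.539. Outside genes they were 64.4% and 60.4%, and it was 2.48 points ± 0.980, with 1.05 points in pool 2 and 2.77 to 3.26 in the other pools. Each of the 4 pools was above 0 in all 3 classes. Gene ends held 59.01% of the calls on even autosomes and 37.96% of the whole difference between the groups, gene bodies 24.2% of calls and 32.5% of the difference, and sequence outside genes 16.8% of calls and 29.4% of the difference. Relative to the mean level of both groups the order was the opposite, at 17.3% near gene ends, 5.41% in gene bodies and 3.98% outside genes.

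CpG density, counted as CpG sites of the table within 100 bp, gave the same picture. Positions with 1 to 4 sites had levels of 61.8% in high and 58.1% in low cells and a matched difference of 2.94 points ± 0.543 (SD over 4 pools). With 5 to 9 sites the difference was 1.58 points ± 0.704, and pool 2 was lowest at 0.575. With 10 to 19 sites it was 0.981 points ± 0.050. With 20 or more sites, the class closest to CpG islands, 3.78% of 142634 calls were methylated in high cells (interval 3.68 to 3.88) and 3.13% of 139969 in low cells (interval 3.04 to 3.22), a matched difference of 0.961 points ± 0.241, or 27.8% of the mean level. All 4 pools were above 0 in all 4 classes. When a pool was left out, fewer positions reached 10 cells, and the difference at 20 or more sites was then 0.634 points without pool 1 and 0.628 without pool 3, and that at 10 to 19 sites was 0.572 without pool 3. Near gene ends it was 0.270 points when a position had to be called in at least 20 cells, which kept 4487 of the 82277 positions.

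The DMSO groups, scored at their own positions, showed the same order. Their matched difference was 1.27, 2.58 and 3.35 points near gene ends, in gene bodies and outside genes, and 1.31, 1.62, 2.28 and 3.26 points from the densest to the sparsest class. In each class the DMSO mean was above the AG-881 mean, and the ranges of mean ± SD overlapped in each of these classes except that of 10 to 19 sites.

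**Figure D2:**
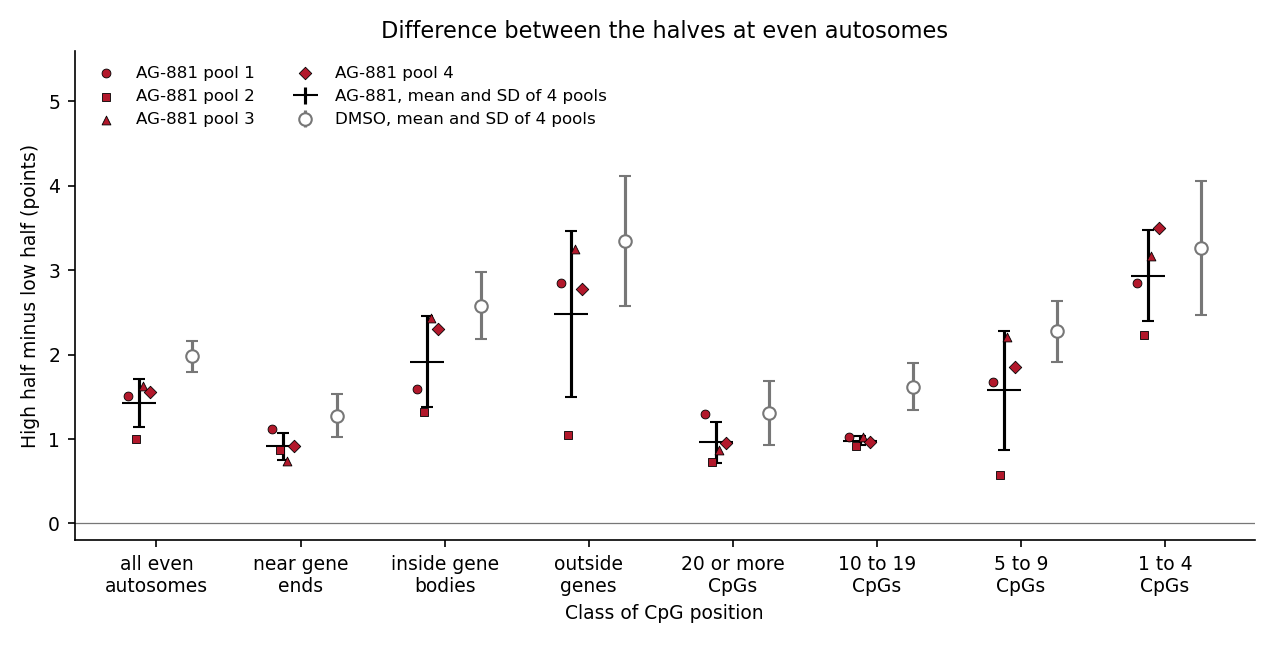
High minus low cells in percentage points (y axis) for all even autosomes, 3 gene classes and 4 classes of CpG density (x axis). Red symbols are the AG-881 pools, black bars their mean and SD, and open circles with bars the mean and SD of the DMSO pools; every red symbol lies above 0, from 0.575 to 3.50 points.

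Sorted by their level in DMSO cells, which took no part in the division, positions of intermediate methylation differed most in points between high and low AG-881 cells. Where DMSO cells had under 5%, the high cells had 0.767% (interval 0.728 to 0.807) and the low cells 0.547% (interval 0.514 to 0.582), a matched difference of 0.216 points ± 0.018 (SD over 4 pools). At a DMSO level of 20 to 40% the levels were 25.6% and 20.8% and the matched difference 4.81 points ± 0.946. At 40 to 60% it was 5.52 points ± 1.20, the highest of the 7 classes, with pools from 3.77 to 6.44. At 80 to 95% it was 2.98 points ± 0.611, and above 95% it was 0.904 points ± 0.665. The class under 5% held 33.5% of the calls and 5.08% of the difference. Relative to the mean level of both groups, the difference was 32.8% under 5%, 12.4% at 40 to 60% and 0.950% above 95%. Levels near 0 or 100% have less room to move in points, and a difference beyond that limit was not tested. Within the range of 20 to 80%, the difference was 6.05 points ± 1.69 at 20 or more sites and 4.57 ± 0.943 at 1 to 4 sites in CpG-poor sequence. The pools ranged from 4.18 to 8.09 points in the former and from 3.35 to 5.48 in the latter, which overlap. Near gene ends, in gene bodies and outside genes it was 5.62, 5.61 and 3.64 points in that range, each within 2 SD over pools of the others.

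**Figure D3:**
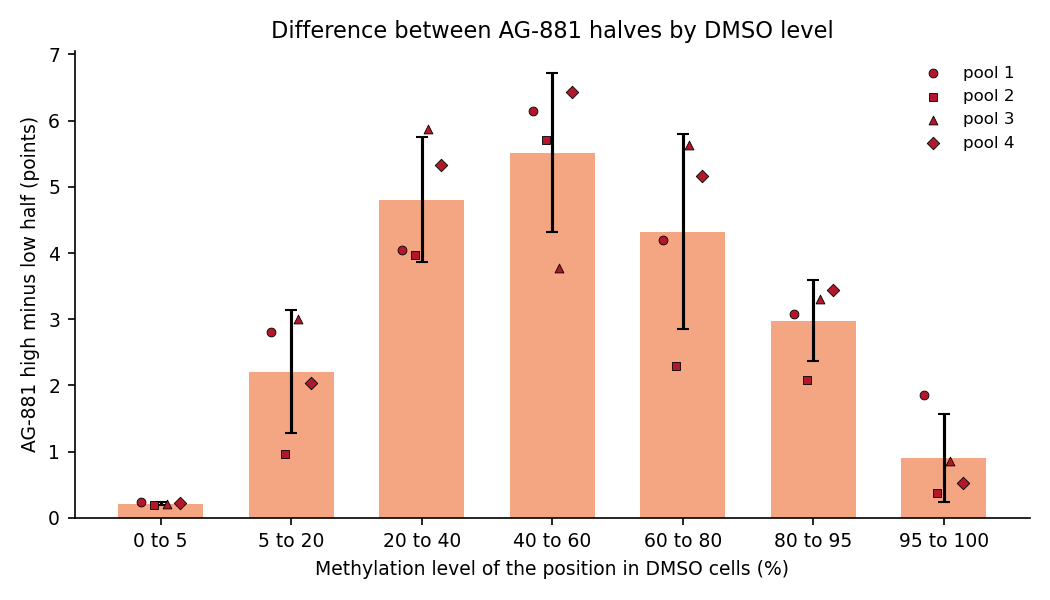
Matched difference between high and low AG-881 cells in percentage points (y axis, bars are means and error bars SDs over 4 pools, symbols are pools) by the level of the position in DMSO cells (x axis, in percent). The bars rise from 0.216 points under 5% to 5.52 points at 40 to 60% and come down to 0.904 points above 95%.

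Set against DMSO cells at the same positions, the low AG-881 cells lay below the DMSO mean and the high cells around it. On even autosomes the low cells ranged from -3.37 to 0.398 points, with a median of -1.28 and a mean of -1.35 ± 0.861 (SD over 33 cells), and 31 of 33 were below the DMSO mean. The high cells ranged from -1.12 to 2.06 points, with a median of 0.065 and a mean of 0.135 ± 0.867, and 15 of 33 were below it. By pool, the low cells averaged -2.04, -1.14, -0.796 and -1.60 points in pools 1 to 4. The high cells averaged -0.439, -0.093, 0.933 and -0.003 points, so that pool 3 alone was above the DMSO mean. Without pool 3 the high cells averaged -0.273 points, and without pools 1 or 2 they averaged 0.278 and 0.213. At positions called in 20 or more cells the low and high cells averaged -0.732 and 1.12 points. With each cell thinned to 20000 positions, which left few positions, both were above DMSO, at 0.809 and 2.05 points, and with positions in 3 or more thinned cells they were at -1.34 and 0.053. For comparison, the high DMSO cells lay 0.983 points ± 0.696 above the other DMSO cells, and the low DMSO cells lay at -0.978 points ± 0.871. On that scale both AG-881 groups were lower than the DMSO group of the same rank.

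Density separated the high AG-881 cells from DMSO in opposite directions. At 20 or more sites within 100 bp, the high cells averaged -0.182 points ± 0.728 against DMSO, and 22 of 33 lay below the DMSO mean. At 1 to 4 sites they averaged 1.26 points ± 1.76, and 8 of 33 lay below it. This held in each of pools 1, 2 and 4, where the averages were -0.360, -0.183 and -0.567 points in dense sequence and 0.2002, 0.626 and 1.66 points in sparse sequence. In pool 3 both were above 0, at 0.298 and 2.36 points. The means also differed in sign between gene ends, at -0.205 points with 22 of 33 cells below DMSO, and sequence outside genes, at 1.05 points with 11 of 33 below, but with opposite signs in pools 2 and 4 only. Pool 1 was below DMSO in both, at -0.439 and -0.314 points, and pool 3 above in both, at 0.237 and 2.64. By density, the low cells were below DMSO in both classes, by -1.15 points ± 0.877 at 20 or more sites (31 of 33 cells) and by -1.96 ± 2.38 at 1 to 4 sites (28 of 33 cells). In the high DMSO cells, 6 of 36 were below the other DMSO cells at 20 or more sites, with a mean of 0.660 points, and 2 of 36 at 1 to 4 sites, with a mean of 1.65. Treatment and pool cannot be told apart here either.

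**Figure D4:**
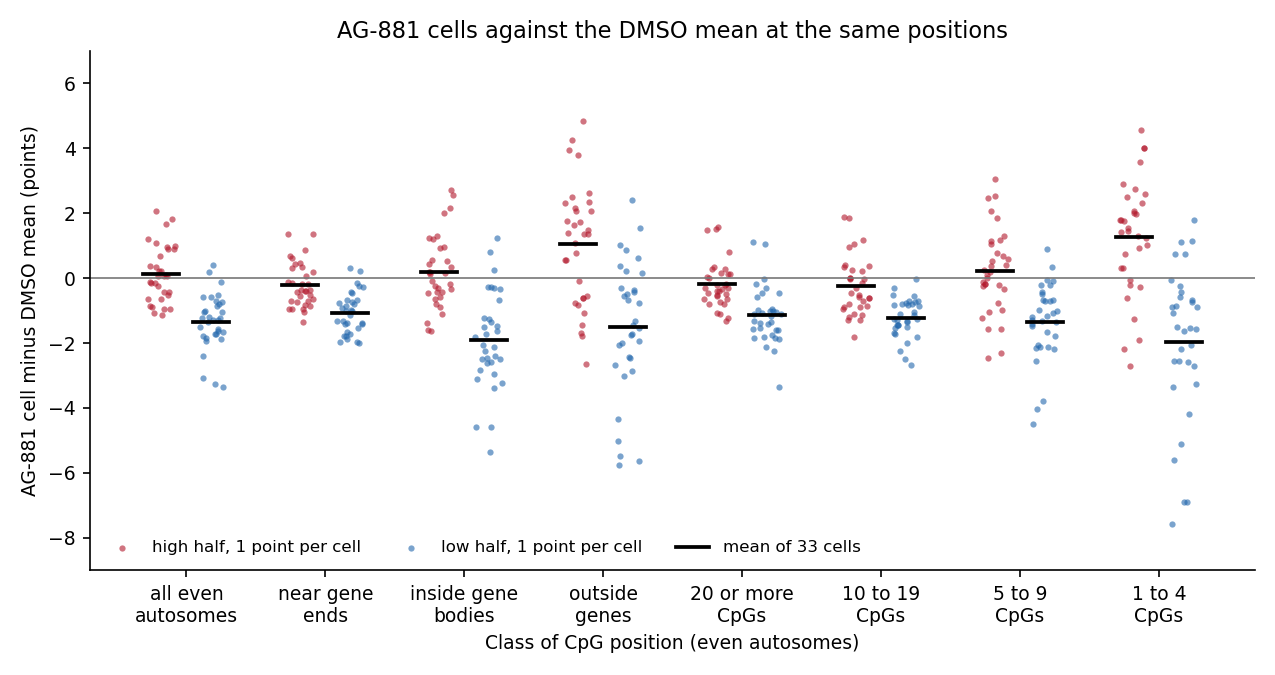
Each point is 1 AG-881 cell, as its mean deviation from DMSO cells at the same positions in percentage points (y axis), for all even autosomes, 3 gene classes and 4 density classes (x axis). Red points are high cells, blue points low cells and black bars their means; the red mean lies at -0.182 points at 20 or more CpGs and at 1.26 points at 1 to 4 CpGs.

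Cells that scored high in 1 sequence class tended to score high in the others, less closely between classes of unlike density. Over the 67 AG-881 cells, r between the even-autosomal score near gene ends and in gene bodies was 0.765, between gene bodies and outside genes 0.809, and between gene ends and outside genes 0.635. Between the densest and the sparsest class it was 0.577. For the same 4 pairs in this order, r after centring each pool was 0.742, 0.780, 0.578 and 0.525. Spearman's rank correlation, without centring, was 0.720, 0.739, 0.557 and 0.534. These points share library and depth, so the values are descriptions.

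Neighbouring CpGs of 1 cell, within 100 bp of each other, were more often both methylated in high cells and more often both unmethylated in low cells. The high cells had the higher level on the same chromosomes, so these 2 shares restate that difference. The share of discordant pairs can also move with the level, and a difference beyond the level was not tested. Both were methylated in 21.7% ± 2.26 of pairs in high cells and 19.3% ± 2.95 in low cells (SD over 33 cells). Both were unmethylated in 68.2% ± 2.68 and 71.1% ± 3.87. Discordant pairs made up 10.1% ± 0.646 in high cells and 9.63% ± 1.06 in low cells, and the difference within pools was 0.474 points ± 0.379 (SD over 4 pools), above 0 in each pool. With each cell thinned to 20000 positions it was 0.028 points ± 0.416. Set against other AG-881 cells at the same pair, an alternative chosen after seeing the data, it was 0.401 points ± 0.120, from 0.278 to 0.519.

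At single genes, the CpG-denser end of each protein-coding gene was measured within 1 kb either side. Of 9000 such genes on even autosomes, 6697 had a denser end and 3598 were measured with at least 50 calls and 8 cells in each group (medians of 145 and 139 calls). High cells had the higher level at 1776 ends, the lower at 1094, and the same at 728. The level was at least 10 points higher in high cells at 203 ends (5.64%) and at least 10 points lower at 39 (1.08%). The DMSO groups leaned the same way. Of 3238 ends also measured in them, 233 were at least 10 points higher in high DMSO cells and 24 at least 10 points lower. The count of 203 became 119 of 2866 ends without pool 2, 117 of 2997 without pool 3 and 123 of 2668 without pool 4. Most ends had under 5% methylation in DMSO cells, and of those 2632 ends 2 were at least 10 points higher. Of 435 ends with a DMSO level of 20 to 80%, 310 were higher in high cells, 146 of them by at least 10 points (33.6%), and the median difference was 6.07 points. With about 140 calls per group, sampling alone moves an intermediate level by several points, so a single end is read below with its interval and pools.

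Of 2713 ends that met the depth rule, 104 (3.83%) were higher and 25 (0.92%) lower with the same sign throughout. That sign had to hold in the pooled level, the matched difference and every pool with 10 or more calls in both groups. At least 3 such pools were required, and the 10 largest of each sign are named. Among the named ends higher in high cells were those of several developmental regulators. Wt1, a zinc-finger factor of kidney and gonad development (chr2:105125529-105127529), had 82.7% in high and 60.6% in low cells (139 and 109 calls). Gsc, the homeobox gene goosecoid (chr12:104472236-104474236), had 41.3% and 20% (208 and 115 calls). Insm2, a zinc-finger factor (chr12:55597917-55599917), had 73.5% (interval 65.7 to 80.3) and 48% (interval 37.9 to 58.2), the largest difference of the 10 at 25.5 points. The intervals of both groups did not overlap at Insm2, Wt1 or Gsc. High cells were above low cells in all 4 pools at Insm2, Wt1, Fgd5, Rasgef1a, Mtmr7, Man1c1, Ano4 and Marveld3, and in the 3 pools with enough calls at Gsc and Slc18a3. The naming rule required this agreement and then took the largest differences. Agreement of pools and separate intervals at the ends named here and below are therefore descriptions, not support.

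Fgd5, an exchange factor for the small GTPase CDC42 (chr6:91977827-91979827, a window that holds its RefSeq start), had 46.8% of 156 calls methylated in high cells (interval 38.8 to 54.9) and 23.1% of 117 in low cells (interval 15.8 to 31.8). The pools had 40, 41.4, 53.9 and 50% in high cells and 23.8, 17.4, 14.9 and 42.3% in low cells. High cells were above low cells in each pool, least so in pool 4. Rasgef1a, an exchange factor for Ras-family GTPases (chr6:118010505-118012505), had 28.1, 18.2, 43.2 and 33.3% in the high and 6.25, 3.85, 11.97 and 9.41% in the low cells of the 4 pools. Every high value was above every low value there, and the pooled levels were 30.7% (interval 24.7 to 37.3) and 9.42% (interval 6.25 to 13.5). Slc18a3, the vesicular acetylcholine transporter (chr14:32463850-32465850), had 43.5% and 19.8%. Mtmr7, a myotubularin-type phosphatase, had 37.8% and 17.9%, Ano4, an anoctamin, 54.3% and 35.4% in a window outside its RefSeq start, and Marveld3, a tight junction protein, 61.7% and 42.8%. Man1c1, a Golgi mannosidase, had 30.4% and 10.5%, but its difference matched by position was 6.14 points against 19.8 unmatched.

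The named ends lower in high cells were led by a Hox gene. Hoxd9, of the HoxD cluster (chr2:74696763-74698763), had 66.7% of 144 calls in high cells (interval 58.3 to 74.3) and 86.2% of 109 in low cells (interval 78.3 to 92.1). By pool it had 59.5, 76, 47.6 and 91.4% in high and 85.7, 80.8, 50 and 95.7% in low cells (8 low calls in pool 3), so pools of 1 group differed among themselves by more than the groups did in pools 2 to 4. Ccl27a, a chemokine gene (chr4:41773225-41775225), had 34.1% (interval 24.5 to 44.7) and 52.4% (interval 41.1 to 63.6), which overlap. Rims3, a protein of the presynaptic active zone, had 3.53% and 19.3%, Slc2a12, a glucose transporter, 5.98% and 21.6%, and Cnn2, an actin-binding calponin, 8.45% and 20.1%. Map3k9 (8.51% and 21.1%), Ptprn2 (7.96% and 20.5%), Lactbl1 (45.8% and 58.8%) and Nfatc2 (6.29% and 13.7%) complete the set with Sfn, which had 6.38% and 24.5% but a matched difference of -2.30 points.

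The promoters of 3 named genes are shown, chosen after their values were seen: Fgd5 and Rasgef1a have the most promoter calls among the named ends higher in high cells, and Ccl27a is an end of intermediate level that was lower. They are the 250 bases before the RefSeq start (GRCm38.p6), read on the strand of the gene, with CpGs in capitals. The CpGs of Fgd5 at chr6:91978715-91978964 (plus strand) had 40.7% of 108 calls methylated in high cells (interval 31.4 to 50.6) and 18.6% of 70 in low cells (interval 10.3 to 29.7), and 26 of its 31 CpGs are in the table. Those of Rasgef1a at chr6:118011255-118011504 (plus strand) had 15.4% of 52 calls (interval 6.88 to 28.1) and 7.59% of 79 (interval 2.84 to 15.8), with 29 of 37 CpGs in the table. Those of Ccl27a at chr4:41774102-41774351 (minus strand) had 50% of 22 calls (interval 28.2 to 71.8) and 72.7% of 22 (interval 49.8 to 89.3), with 7 of 12 CpGs in the table. The intervals were apart at Fgd5 and overlapped at the other 2.
Fgd5: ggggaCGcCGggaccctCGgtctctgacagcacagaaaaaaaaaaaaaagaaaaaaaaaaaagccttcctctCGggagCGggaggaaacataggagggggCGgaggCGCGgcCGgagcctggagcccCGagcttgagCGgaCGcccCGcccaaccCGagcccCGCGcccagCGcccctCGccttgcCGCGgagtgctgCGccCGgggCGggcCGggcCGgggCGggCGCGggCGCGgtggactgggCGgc
Rasgef1a: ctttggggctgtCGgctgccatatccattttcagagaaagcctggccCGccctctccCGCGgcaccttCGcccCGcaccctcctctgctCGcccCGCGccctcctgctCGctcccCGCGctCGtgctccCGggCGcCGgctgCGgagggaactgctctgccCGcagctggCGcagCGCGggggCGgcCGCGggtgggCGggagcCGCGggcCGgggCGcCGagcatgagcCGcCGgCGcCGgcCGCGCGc
Ccl27a: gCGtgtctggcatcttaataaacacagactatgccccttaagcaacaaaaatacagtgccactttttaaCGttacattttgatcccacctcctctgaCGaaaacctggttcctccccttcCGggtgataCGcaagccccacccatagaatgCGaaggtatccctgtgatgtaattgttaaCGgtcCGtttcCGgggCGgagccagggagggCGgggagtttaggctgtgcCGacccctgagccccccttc

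**Figure D5:**
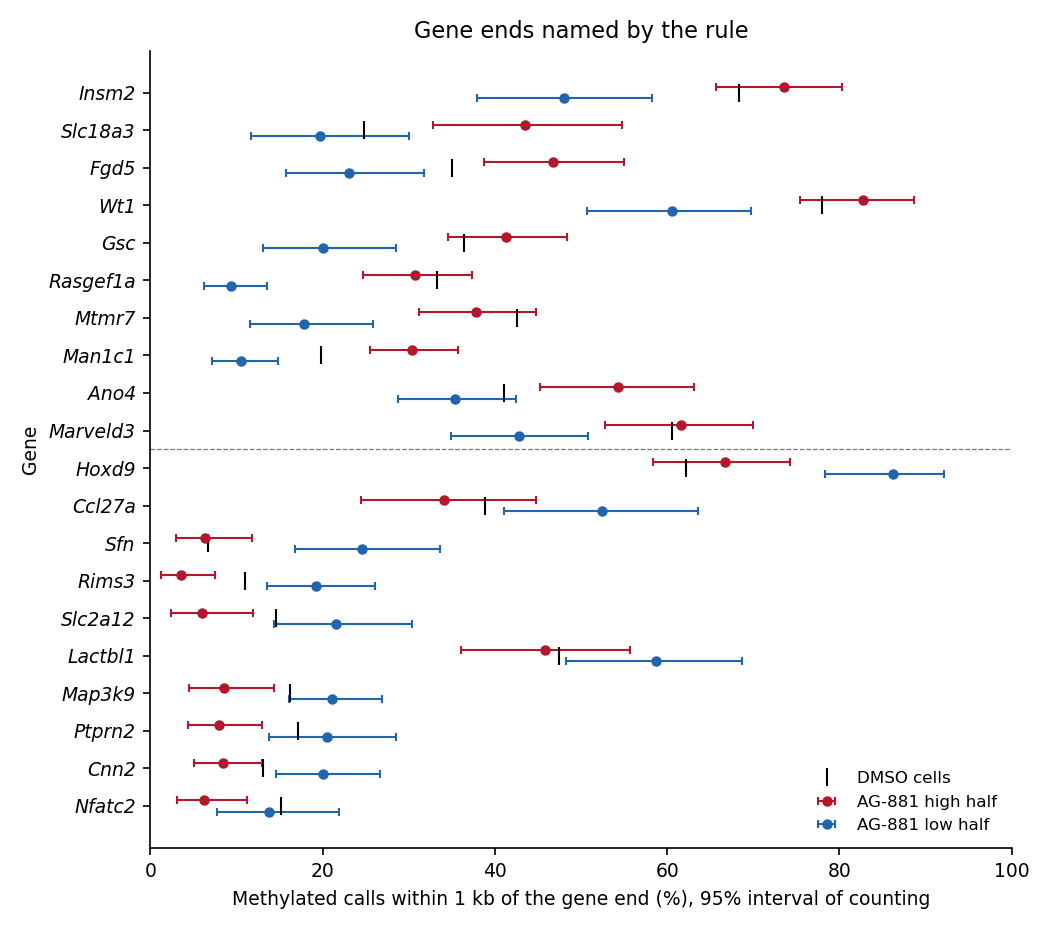
Methylated calls in percent (x axis, points with 95% Clopper-Pearson intervals of counting) within 1 kb of the 20 named gene ends (y axis), in high (red) and low (blue) AG-881 cells, with the DMSO level as a black tick. The upper 10 genes were higher in high cells, by 18.9 to 25.5 points, and the lower 10 were lower, with differences of -7.44 to -19.6 points.

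DMSO cells divided the same way offer values that took no part in naming these ends. At all 10 named ends that were higher in high AG-881 cells, high DMSO cells were above low DMSO cells too, by 1.46 points at Man1c1 up to 30.97 points at Gsc. Of the 10 ends that were lower, 4 were also lower in high DMSO cells (Hoxd9, Rims3, Cnn2 and Nfatc2) and 6 were higher. Over all 104 ends of consistent positive sign, 80 were higher and 24 lower in high DMSO cells, and of the 25 of negative sign 12 were higher, 12 lower and 1 neither. Over 3238 ends measured in both arms, 1660 were higher and 969 lower in high DMSO cells. At a DMSO level of 5 to 20% it was 277 higher of 423 ends, and at 20 to 40% 164 of 203. At 40 to 60% it was 84 of 96, and at 60 to 80% 44 of 56. The 104 ends were not matched to other ends by level, so whether 80 of 104 is above the share at a like level was not tested.

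Developmental transcription factors, whose gene starts often lie in CpG islands, held the largest count of ends past 10 points among the 19 gene lists. Of 54 measured members on even autosomes, 40 were higher in high cells, 9 lower and 5 equal, with a median difference of 2.54 points against 0 over all 3598 ends. In 14 of the 54 the difference was at least 10 points up, and in 0 at least 10 points down. Among these 14, Sim2 had 63.5% and 46.2% but a matched difference of -4.53 points. This list was also the longest by measured members. Six6, an eye and pituitary homeobox gene whose window lies outside its RefSeq start, had the largest difference, 61.5% of 65 calls (interval 48.6 to 73.3) in high cells against 27.2% of 103 (interval 18.9 to 36.8) in low cells, with 61.5, 62.5, 61.5 and 60% in the high and 57.1, 19.5, 35.3 and 19.4% in the low cells of pools 1 to 4. Rax, also a gene of eye development, was the member with the largest difference the other way, at 78.9% and 88.8%. In DMSO cells, Six6 had 66.9% in high and 52.9% in low cells, and Rax had 82.2% and 75%. Members of this list start from higher levels than most ends, so the count has to be read at a like level. Of the 31 with a DMSO level of 20 to 80%, 26 were higher, with a median of 9.19 points beside 6.07 over all 435 such ends. The difference was at least 10 points up in 14 of the 31 (45.2%, beside 33.6%).

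Other lineage lists were smaller. Their counts stand beside 1776 higher, 1094 lower and 728 equal of all 3598 ends. Of 10 neural progenitor genes measured, 9 were higher in high cells, 0 lower and 1 equal, with a median of 6.05 points. At a DMSO level of 20 to 80% there were 4 of them, all higher, beside 310 of all 435 such ends. Of these 4, 1 was higher by at least 10 points (25%, beside 33.6%), and their median was 7.13 points beside 6.07. Dlx2, a homeobox gene of interneuron progenitors (chr2:71545754-71547754), had 25.4% of 276 calls (interval 20.3 to 30.9) and 13.3% of 338 (interval 9.88 to 17.4), and by pool 21.7, 23.4, 30.9 and 25% against 10.6, 11.4, 13.3 and 15.97%. Every high value was above every low value at Dlx2. Of 13 Hox genes, 8 were higher, 3 lower and 2 equal. At least 10 points up were 4 and down 1, beside 203 and 39 of all 3598 ends. Of the 5 with a DMSO level of 20 to 80%, 3 were higher and 2 lower, with a median of 0.249 points beside 6.07 over all such ends. In 2 of these 5 the difference was at least 10 points up (40%, beside 33.6%), and in 1 at least 10 points down. The windows of Hoxa5 and Hoxa6 overlap, so those members share calls. Hoxd13 had 67.7% and 41.7%, but its pools went both ways, with 83.8% against 6.56% in pool 1 and 71.9% against 96% in pool 4. All 3 measured astrocyte genes were higher, led by the connexin gene Gjb6 (45.6% and 34.9%). The intervals of Gjb6 overlap (32.4 to 59.3 and 23.3 to 47.97), and its 2 pools with enough calls went 1 up and 1 down. Id3, another of the 3, had a matched difference of -0.312 points. All 3 oligodendrocyte precursor genes were higher at very low levels, with a median difference of 0.862 points. Mature oligodendrocyte genes had 2 of 3 higher, with Mal, a myelin protein gene, at 16.1% and 11.5%, and with Mbp, myelin basic protein, at 56.5% and 57.9%; matched by position both had the opposite sign, at -1.50 and 5.13 points. Of 6 neuron genes 4 were higher and 2 lower, between Snap25, of synaptic vesicle fusion (31.4% and 21.6%), and Nefm, a neurofilament (43.1% and 46.9%). Of 3 pools with enough calls, 1 was up and 2 were down at Snap25, and the same counts held at Nefm.

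Notch pathway genes, which act in the choice between progenitor and differentiated states, had 9 of 11 members higher and 2 lower, with a median of 0.989 points. Of all 3598 ends 1776 were higher, and 1 of the 11 members had a DMSO level of 20 to 80%. Hes1, a Notch target, had 28.4% of 109 calls and 17.1% of 140, but in pool 1 it had 59.1% in high and 0% in low cells and in pool 3 it had 0% and 72.7%. Nrarp, another Notch target, was lower at 13.1% and 19.7%. A direction at these ends depends on the pool.

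Most ends on the list for DNA methylation and IDH metabolism were sparsely methylated: 9 of 17 were higher, 4 lower and 4 equal, and the pooled levels were 1.52% and 0.820%. Egln3, a prolyl hydroxylase that uses 2-oxoglutarate, had the largest difference, 9.40% of 117 calls (interval 4.79 to 16.2) against 0 of 105 (interval 0 to 3.45), but in DMSO cells it had 1.47% in high and 16% in low cells. Tet1, of the enzymes that oxidise 5-methylcytosine and named after its values were seen, came next with 14.4% of 139 calls (interval 9.02 to 21.3) against 5.32% of 94 (interval 1.75 to 11.98), which overlap. High cells were above low cells at Tet1 in 2 of 4 pools, with 34.2% against 0% in pool 3 and 5.66% against 9.52% in pool 2. Idh3b, a subunit of the mitochondrial NAD-dependent enzyme, had the largest pooled difference the other way, at 3.25% against 7.58%, but a matched difference of 0.575 points. Polycomb and trithorax genes were higher in 5 of 7 and equal in 2, led by Pcgf1 (8.62% and 2.53%). Of all 3598 ends 1776 were higher, and 0 of these 7 had a DMSO level of 20 to 80%. Cell cycle genes were 5 higher, 4 lower and 5 equal of 14, all within 2 points, between Bub1 and Rrm2. Ribosomal protein genes were 5 higher, 5 lower and 6 equal of 16, and housekeeping genes 2 higher, 3 lower and 3 equal of 8 (Vcp and Eef2).

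Cell cycle inhibitors and tumour suppressors were split, 6 higher, 5 lower and 2 equal of 13. Cdkn2b, the inhibitor p15, had 57.9% of 57 calls in high and 72.3% of 65 in low cells, with overlapping intervals (44.1 to 70.9 and 59.8 to 82.7). Trp73, of the p53 family, had 30.6% and 19.6%, but a matched difference of 2.79 points. Imprinted genes were 2 higher and 3 lower of 5, and the 2 with a DMSO level of 20 to 80% were both lower. Dio3, a thyroid hormone deiodinase, had 88.3% of 77 calls (interval 78.97 to 94.5) and 60% of 55 (interval 45.9 to 72.98). Only 2 of its pools had enough calls, and both were up. Plagl1 had 23.5% and 31.7%, with overlapping intervals (18.3 to 29.4 and 24.1 to 40.02). Among lists of other cell types, Col4a1, a basement membrane collagen whose window also holds the start of Col4a2, had 35.9% and 19.5%, and it gives both higher members of the 3 vascular and mesenchymal genes, since the calls are the same; the other member was equal. Both microglia and immune genes measured were higher, Irf8 by 6.48 points, with 2 of its pools up and 2 down. The germline list had 1 measured end (Tex15, 24.2% and 28.1%, matched difference 1.15 points) and antigen presentation 1, at 0% of 197 and 0% of 209 calls.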

How the data were processed

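Live single cells of the mouse glioma line were profiled by joint reduced representation bisulfite sequencing (MspI) and full-length RNA amplification, per the labels' protocols; the bisulfite part is used here. The authors deposited 1 table of methylated fractions, 0, 0.5 or 1 for each cytosine position and cell, with mm10 as the build named in the submitters' processing notes. For aligner, caller and read minimum, nothing is given in the sources used here. The fractions come without read counts, so read depth is unknown and depth is given as positions called. Incomplete conversion would raise every level. The table holds 1416034 positions, 12325314 values and 141 columns, which name arm, pool and barcode but not the well.

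Scores, matched differences and classes were computed with Python 3.11.15, numpy 2.4.6 and scipy 1.17.1 on positions as deposited, called in at least 10 cells of the arm, as the high mean minus the low mean within a pool, averaged over 4 pools. The code was tested on simulated data. Levels, gene ends and neighbours used adjacent positions merged as both strands of a CpG, with mixed calls left out and 95% Clopper-Pearson intervals. Gene positions and promoters came from RefSeq (GRCm38.p6, the same sequence as mm10). Named ends needed 80 calls and 10 cells in both groups and the same sign in the pooled level, the matched difference and every pool with 10 or more calls in both groups (at least 3 pools); the text names the 10 largest of each sign and, from every list, its extreme member each way. The members and the lists were chosen with earlier results of these data known, so no list gives independent support. Alternatives changed the cells required, the division, the chromosomes, strand merging, mixed calls, depth, reference, weighting, class limits and pools. Some of the extreme members are not reported here.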

Additional observations from a re-analysis of the deposited data

How the results depend on the processing

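Each of the 14 results was computed again under its alternatives, 204 values in all, of which 147 moved by less than the SD over pools (counts: stayed within 1.5 times), 55 moved further and 2 changed sign. The high minus low difference stayed above 0 in every class, in DMSO cells and for neighbouring CpGs under all settings run. All differences below are in points and in the order of the classes named. Positions called in 5 or more cells gave 1.91 over even autosomes, 1.26 near gene ends, 1.37 at 10 to 19 CpGs and 2.31 in DMSO. Positions called in 20 or more cells gave 0.270 near gene ends, 0.557 at 20 or more CpGs, 0.928 at 10 to 19 CpGs, and -0.732 and 1.12 for the low and high cells against DMSO. Top against bottom tertile gave 2.16 over even autosomes, 1.36, 2.93 and 3.92 near gene ends, in bodies and outside genes, 1.35, 1.52, 2.37 and 4.68 from the densest to the sparsest class, 2.56 in DMSO, and 17 of 2518 ends at least 10 points lower. The difference at 10 to 19 CpGs has the smallest SD over pools and also moved when cells were divided over all pools together (1.15), when even autosomes chose the cells (1.12), with equal weight per position (0.907) and with density counted within 50 bp (1.09), which gave 2.28 at 1 to 4 CpGs. At least 100 calls per group gave 92 ends higher and 14 lower, of 2336 measured.

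Each cell thinned to 20000 positions left 476 positions with 10 cells and a median of 80 calls per cell. It gave 1.89 over even autosomes, 2.04, 4.06 and 0.692 for the gene classes, 9.81, 1.94, 0.800 and 3.67 for the density classes, 1.27 in DMSO, 0.809 and 2.05 for the low and high cells against DMSO, so that the low cells changed sign, and 0.028 for discordant neighbours. With thinned cells and positions called in 3 or more cells, chosen after seeing the data, 66127 positions were kept, and the values that moved were 1.18 at 10 to 19 CpGs and 2.16 in DMSO; the low cells lay at -1.34 against DMSO.

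Leaving out each pool in turn gave 1.07 to 1.42 over even autosomes, 0.693 to 0.842 near gene ends, 1.29 to 1.73 in bodies, 2.10 to 2.78 outside genes, 0.628 to 0.947, 0.572 to 0.927, 1.37 to 2.09 and 2.81 to 2.997 from the densest to the sparsest class, 1.66 to 2.06 in DMSO, -1.44 to -1.15 for the low cells and -0.273 to 0.278 for the high cells against DMSO, 117 to 152 ends higher, 31 to 34 ends lower, and 0.421 to 0.635 for discordant neighbours. It also lowered the positions scored from 82277 to between 30500 and 45399. High and low cells were compared within pools throughout. No paired analysis was possible because the labels give no replicate numbers that link single cells across groups. The labels point to no second culture in either arm, so no result has a check over cultures.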

Other observations

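Of the 9 even autosomes, 8 had a matched difference above 0 in all 4 pools, from 1.08 points on chromosome 10 to 1.87 on chromosome 14. Chromosome 18 had 0.258 points ± 0.443 (SD over 4 pools), with 2 of 4 pools above 0. In DMSO cells chromosome 18 had 2.26 points ± 1.08. Chromosome X, which took no part in the division, had 2.32 points ± 0.844, with 63.9% of calls methylated in high and 59.4% in low cells. The CpGs nearest to a gene end, within 250 bases, had a difference of 0.833 points ± 0.132, with levels of 4.12% and 3.46%.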
